A study of Mus musculus with 6 samples.

Results

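The genes described here are 8 members of the signalling chain that runs from phosphoinositide 3-kinase (PI3K) through the AKT kinases and the mTORC2 complex to the FoxO transcription factors. They are Akt1, Akt2, Rictor, Prr5l, Pik3ip1, Foxo1, Foxo3 and Foxo4, found by symbol in the deposited table, where each stands in 1 row of 22322 genes. All 8 passed the filter on low counts, as did 13161 genes in all. The list was drawn up with the difference between PTN and Control in these libraries already known, so that difference is given for the 8 genes as a description, with no test.

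Wild-type (WT) mouse neural stem progenitor cells, labelled as a cell line, were sequenced 24 h after addition of PTN or of PBS, the Control, with 3 libraries in each group. Both groups shared genotype, cell type and time, and the study's title speaks of conditioned medium with PTN. PTN is given only as an abbreviation and is read here as pleiotrophin, a secreted heparin-binding growth factor. The sources used here do not give the dose, the age of the source animals or whether the replicates came from separate cultures, and p-values therefore reflect no more than the variation among these libraries, which may be technical.

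PI3K, switched on by growth factor receptors, makes the membrane lipid PIP3, which brings AKT to the membrane, where PDK1 and mTORC2 phosphorylate it. Active AKT phosphorylates FoxO factors, which then leave the nucleus, so that genes of cell cycle arrest, stress resistance and cell death are less transcribed. In neural stem cells FoxO factors are known for keeping the pool quiescent and long-lived, and AKT for promoting growth and survival. Most of this control acts on proteins by phosphorylation, which RNA counts do not measure.

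Libraries held between 19267764 and 25975205 expected counts in PTN and between 21268297 and 26341745 in Control. Between libraries, Pearson's r over the genes' log2 CPM was 0.961 to 0.987 within groups and 0.930 to 0.966 across groups, with genes as points that are not replicates. Summed over 8 markers of neural stem and progenitor cells, levels were 7625 to 8941 CPM in PTN and 5749 to 6598 CPM in Control, with Nes, Sox2 and Vim detected in every library and 1 of 8, Vim, called higher by edgeR. Vim was the largest part of that sum, at 5165 ± 243 CPM in PTN and 3448 ± 73.6 CPM in Control (SD, n = 3 each). In each of the other markers of this list the groups overlapped, and none of those was called. Summed over 7 astrocyte markers they were 4517, 7507 and 5256 CPM in PTN libraries 1, 2 and 3 and 9765 to 9846 CPM in Control, with 2 of 7 called lower by edgeR, Gfap and Aldoc. The sum was thus lower in every PTN library, least so in PTN 2, but not every marker was: Slc1a3 was at 2149 ± 81.2 CPM in PTN and 1666 ± 159 CPM in Control, S100b at 4.39 ± 0.58 CPM in PTN and 2.78 ± 0.41 CPM in Control, and Aqp4 at 412 ± 373 CPM in PTN and 349 ± 116 CPM in Control (SD, n = 3 each), none of them called. The 7 oligodendrocyte lineage markers summed to 1113 to 1493 CPM in PTN and 1287 to 1471 CPM in Control, with 2 called lower by edgeR. Pdgfra was 3.90-fold lower at 24.4 ± 12.6 CPM in PTN, against 95.3 ± 11.9 CPM in Control, and Cspg4 1.81-fold lower at 34.9 ± 4.14 CPM in PTN, against 63.1 ± 8.43 CPM in Control. The 6 neuron markers summed to 298 to 501 CPM in PTN and 252 to 383 CPM in Control. The 6 microglial markers summed to 2.60 to 2.99 CPM in PTN and 1.99 to 3.78 CPM in Control, the 6 endothelial and mural markers to 9.23 to 14.5 CPM in PTN and 22.4 to 25.2 CPM in Control, and the 5 fibroblast and meningeal markers to 3.22 to 5.31 CPM in PTN and 9.25 to 11.2 CPM in Control. Of these edgeR called 1 endothelial and mural marker, Acta2, and 1 fibroblast and meningeal marker, Pdgfrb, both lower. Acta2 was the largest part of its sum in Control, at 3.37 ± 1.55 CPM in PTN and 16.7 ± 1.08 CPM in Control (SD, n = 3 each). The other markers of that list did not all follow. Kdr was at 2.35 ± 0.52 CPM in PTN and 1.04 ± 0.29 CPM in Control, not called. Pecam1 and Cdh5 were also higher on average in PTN, at low levels, and Rgs5 and Cldn5 lower. The 4 ependymal and choroid plexus markers summed to 58.9 to 109 CPM in PTN and 72.7 to 91.1 CPM in Control, with Tmem212 at 0 in all libraries. Markers of microglia, vessels and meninges were thus low beside those of neural cells in both groups. In such bulk RNA, fewer cells of a type and less RNA per cell cannot be told apart.

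Prr5l, the member whose level differed most between the groups, has 3 annotated starts among the RefSeq promoters of build GRCm38.p6, each given as 250 bases before to 50 bases after the start. They are shown because counts per gene do not separate the starts. All lie on the minus strand of chromosome 2. Capitals mark matches to the FoxO recognition element GTAAACA or its reverse complement TGTTTAC, on either strand, and these windows hold none.

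Prr5l start 1, chr2:101797658-101797957: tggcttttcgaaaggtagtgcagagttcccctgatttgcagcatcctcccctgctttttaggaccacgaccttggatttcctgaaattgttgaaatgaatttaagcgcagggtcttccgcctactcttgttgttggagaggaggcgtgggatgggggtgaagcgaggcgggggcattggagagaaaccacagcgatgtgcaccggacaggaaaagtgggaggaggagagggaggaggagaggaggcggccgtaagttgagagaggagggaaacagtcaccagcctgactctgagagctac
Prr5l start 2, chr2:101838931-101839230: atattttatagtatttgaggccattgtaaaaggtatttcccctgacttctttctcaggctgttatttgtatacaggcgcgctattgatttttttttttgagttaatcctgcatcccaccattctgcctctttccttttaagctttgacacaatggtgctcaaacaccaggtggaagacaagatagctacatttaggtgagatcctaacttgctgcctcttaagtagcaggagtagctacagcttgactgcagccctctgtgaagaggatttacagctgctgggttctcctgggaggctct
Prr5l start 3, chr2:101882978-101883277: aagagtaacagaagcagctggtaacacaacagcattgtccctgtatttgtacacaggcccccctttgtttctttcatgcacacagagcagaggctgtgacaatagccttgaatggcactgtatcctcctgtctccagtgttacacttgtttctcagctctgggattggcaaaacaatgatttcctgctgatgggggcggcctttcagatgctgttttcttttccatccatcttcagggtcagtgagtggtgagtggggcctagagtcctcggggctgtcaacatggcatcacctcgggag

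Of the 8 genes 7 had a promoter in the table, with 13 windows in all, and Foxo4 was not matched. The element stood in 1 of the 13 windows, against 1199 of 32851 windows in the whole table, or 3.65%. That match lies at an upstream start of Akt1 on the minus strand of chromosome 12, beginning 161 bases before the start and reading on the strand opposite to the gene. Its window is given because it is the one with the element. The other Akt1 window, all 4 of Akt2 and the single windows of Rictor, Pik3ip1, Foxo1 and Foxo3 held no match. A match or its absence describes these letters only.

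Akt1 upstream start, chr12:112674835-112675134: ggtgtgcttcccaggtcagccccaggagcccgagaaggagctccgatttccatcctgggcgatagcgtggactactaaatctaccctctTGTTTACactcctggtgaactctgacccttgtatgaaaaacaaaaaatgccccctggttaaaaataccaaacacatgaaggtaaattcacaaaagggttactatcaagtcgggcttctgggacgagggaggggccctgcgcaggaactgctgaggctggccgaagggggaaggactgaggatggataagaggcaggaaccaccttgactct

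The windows also differed in composition. The other Akt1 window, Rictor and Foxo3 had 79.7%, 78.3% and 75% G and C, against a median of 52.7% over all windows in the table. The 3 Prr5l windows had 54.7%, 43.0% and 50.3%, and the Pik3ip1 window had 54.7%.

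Across the 8 genes, PTN cells differed from Control cells mainly in Prr5l. Its level was 3.27-fold higher in PTN, whereas the other 7 genes lay within 2-fold, from 1.68-fold higher for Rictor to 1.47-fold lower for Akt2. The log2 fold change was positive for 4 genes and negative for 4, with a median of 0.01 over the 8 and 0.03 over all tested genes. By edgeR's quasi-likelihood test over all genes 1 of the 8 was called at an adjusted p under 0.05, or 12.5%, against 7.99% of all tested genes, with 4.93% called higher and 3.06% called lower. That gene was Prr5l, called higher. The PTN and Control libraries did not overlap in 2 of the 8, Prr5l and Foxo3, or 25%, against 32.9% of all tested genes. Because the genes were chosen on this contrast, nothing is read from either count.

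**Figure D1:**
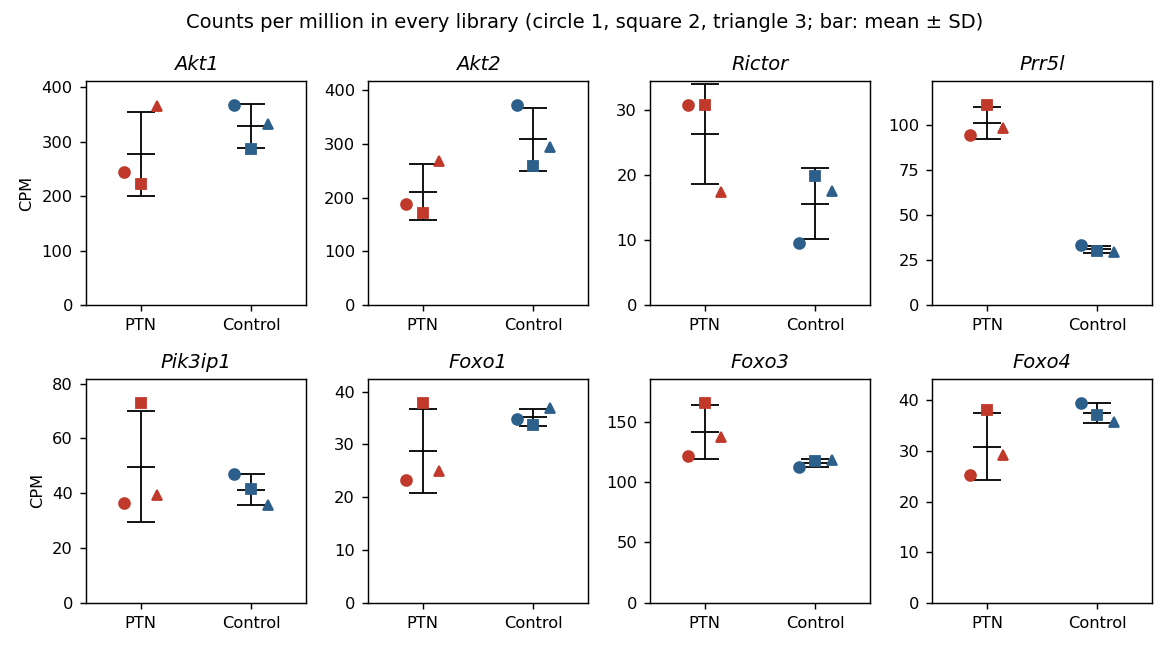
TMM-scaled CPM (vertical axes, linear, from 0) of the 8 genes in each PTN and Control library, with the mean and SD of 3 libraries. Prr5l lies at 94.1 to 111 CPM in PTN and 29.3 to 33.1 CPM in Control, and in Foxo3 the groups also do not overlap, while the other 6 genes overlap.

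The mTORC2 complex is built on the kinase mTOR and the scaffold Rictor, which sets it apart from mTORC1, and phosphorylates AKT and other kinases of its class. Prr5l encodes Protor-2, a Rictor-binding protein of the complex that its core assembly does not need. In counts scaled to library size (CPM), it was at 94.1, 111 and 98.4 in PTN libraries 1, 2 and 3, against 33.1, 30.2 and 29.3 CPM in Control libraries 1, 2 and 3. Every PTN library thus lay well above every Control library, and both groups were tight. The mean was 101 ± 8.76 CPM in PTN and 30.9 ± 1.98 CPM in Control (SD, n = 3 each), and the log2 fold change was 1.71 ± 0.14 (SE). The value stayed between 1.63 and 1.76 when any 1 library was left out and was 1.70 with each library's trend of level on transcript length removed. Among all tested genes this change stood at percentile 98.6.

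Rictor was at 30.8, 30.7 and 17.5 CPM in PTN libraries 1, 2 and 3, against 9.51, 19.8 and 17.6 CPM in Control libraries 1, 2 and 3. PTN 1 and PTN 2 were high, PTN 3 lay among the Control libraries and Control 1 was lowest, so the groups overlapped. The log2 fold change was 0.75 ± 0.31 (SE), and it was 0.97 without PTN 3 and 0.47 without Control 1. Rictor has a long transcript, 9.31 kb as the deposited counts and FPKM imply, and the eighth of genes with the longest transcripts had a median log2 fold change of 0.31, against -0.24 in the shortest eighth. With the trend on length removed from each library the log2 fold change of Rictor was 0.42.

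Libraries differed in this length trend. The median of centred log2 CPM in the longest eighth minus that in the shortest was 0.39, 0.41 and 0.03 in PTN libraries 1, 2 and 3, against -0.58, -0.15 and -0.09 in Control libraries 1, 2 and 3. Transcripts of mitochondrial DNA took 8.12%, 8.10% and 3.97% of the counts in PTN libraries 1, 2 and 3, against 4.47%, 7.47% and 5.76% in Control libraries 1, 2 and 3. PTN 3 and Control 1 were thus lowest in mitochondrial share and PTN 1 and PTN 2 highest in both measures. Rictor was likewise highest in PTN 1 and PTN 2 and lowest in Control 1, while the 3 libraries between did not follow the order of the length trend. The part of the mitochondrial share in the result was not tested.

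Of the other mTORC2 genes, listed with their assembly factors, 0 of 7 tested were called by edgeR in either direction at an adjusted p under 0.05. DESeq2 and limma-voom also called 0. At an unadjusted p under 0.05 there was 1, Deptor, which encodes an inhibitor of mTOR and was at 5.26 ± 1.11 CPM in PTN and 3.26 ± 0.70 CPM in Control (SD, n = 3 each, edgeR adjusted p = 0.140). Deptor also has a long transcript, 8.51 kb as implied, and the length trend was left in these values. The kinase gene Mtor was at 140 ± 26.9 CPM in PTN and 151 ± 14.4 CPM in Control (edgeR adjusted p = 0.692). Prr5, which encodes the related Protor-1, was at 6.81 ± 2.39 CPM in PTN and 8.49 ± 1.79 CPM in Control (edgeR adjusted p = 0.464). In FPKM, which allows genes to be compared per length, Prr5l made up 89.7%, 93.6% and 85.9% of the sum of Prr5l and Prr5 in PTN libraries 1, 2 and 3, against 67.2%, 73.8% and 71.8% in Control libraries 1, 2 and 3. The Prr5l share was higher in every PTN library than in any Control library, with Prr5l as the larger component in all 6. Prr5l was chosen on this contrast and Prr5 was not called, so the share restates the Prr5l difference and is not a separate result.

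AKT kinases carry the signal from PIP3 to growth, metabolism and survival. Akt1 is broadly expressed and tied to growth, and Akt2 is best known for insulin-driven glucose uptake. Akt1 was at 245, 223 and 366 CPM in PTN libraries 1, 2 and 3, against 368, 287 and 333 CPM in Control libraries 1, 2 and 3. PTN 1 and PTN 2 were low and PTN 3 lay within the Control range, so the groups overlapped. The log2 fold change of Akt1 was -0.24 ± 0.21 (SE) and ranged from -0.49 without PTN 3 to -0.11 without PTN 2.

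Akt2 was at 189, 171 and 269 CPM in PTN libraries 1, 2 and 3, against 372, 258 and 294 CPM in Control libraries 1, 2 and 3. As for Akt1, PTN 1 and PTN 2 were lowest, Control 1 was highest, and PTN 3 overlapped with Control 2. For Akt2 the log2 fold change was -0.56 ± 0.21 (SE). It was -0.78 without PTN 3 and -0.43 without Control 1 or PTN 2.

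Akt1 and Akt2 thus ran opposite to Rictor over the libraries, being lowest in PTN 1 and PTN 2, where Rictor was highest, and highest in Control 1, where Rictor was lowest. Their transcripts, 2.66 and 2.62 kb as implied, fall in the middle of the length range. With the length trend removed their log2 fold changes were -0.26 and -0.57.

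In deposited FPKM the ratio of Akt1 to Akt2 was 1.39, 1.28 and 1.39 in PTN libraries 1, 2 and 3, against 0.953, 1.08 and 1.11 in Control libraries 1, 2 and 3. Every PTN library lay above every Control library in this ratio, although the levels of the genes overlapped. For scale, CPM did not overlap between the groups in 32.9% of all tested genes. No such figure was computed for ratios, so nothing is read from this separation. The Akt1 and Akt2 levels were high or low in the same libraries. The mean ratio was 1.35 ± 0.06 in PTN and 1.05 ± 0.08 in Control (SD, n = 3 each).

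**Figure D2:**
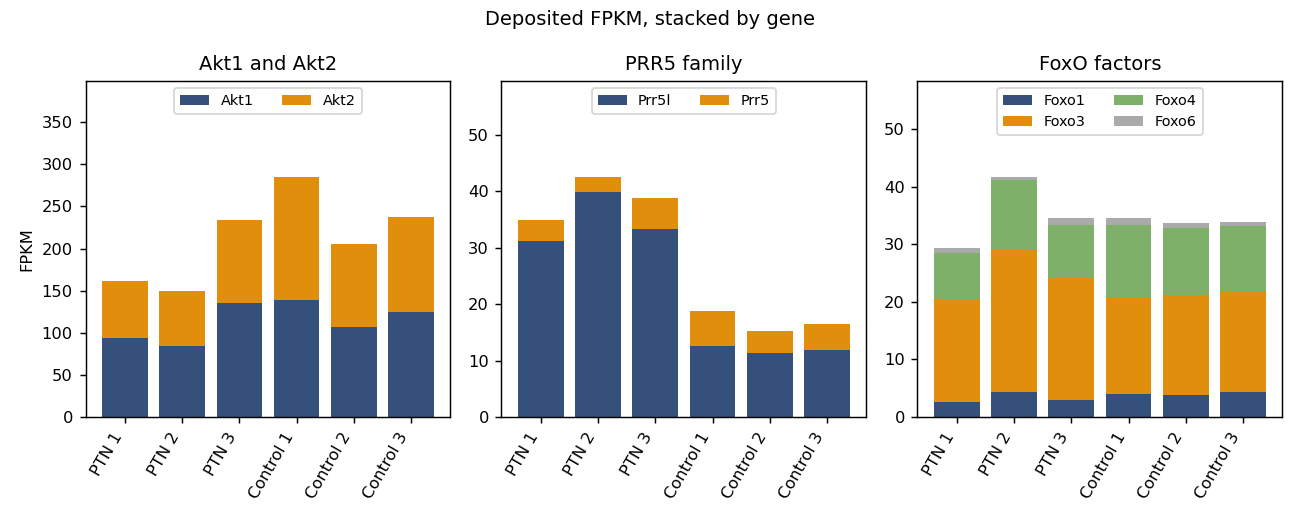
Deposited FPKM (vertical axes, linear, from 0) of Akt1 and Akt2, of the PRR5 family and of the FoxO factors in each library, with PTN left of Control, stacked by gene. Prr5l fills most of the PRR5 bars in PTN, Akt1 is above Akt2 in every PTN library, and Foxo3 is the largest FoxO component in each library.

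Pik3ip1 encodes a membrane protein that binds the catalytic subunit of PI3K and inhibits it, upstream of AKT. It was at 36.5, 73.0 and 39.5 CPM in PTN libraries 1, 2 and 3, against 47.0, 41.5 and 35.5 CPM in Control libraries 1, 2 and 3. PTN 2 stood alone above all other libraries, while PTN 1 and PTN 3 lay within the Control range. The log2 fold change was 0.26 ± 0.26 (SE) with all libraries and -0.12 without PTN 2, so its direction rested on that library.

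FoxO factors are the nuclear end of the chain, bind the same DNA element and share many targets. Foxo1 was at 23.4, 37.9 and 25.1 CPM in PTN libraries 1, 2 and 3, against 34.9, 33.7 and 36.8 CPM in Control libraries 1, 2 and 3. PTN 1 and PTN 3 lay below all Control libraries and PTN 2 above them. Foxo1 had a log2 fold change of -0.29 ± 0.20 (SE), and -0.54 without PTN 2. Foxo1 transcripts are long, 8.67 kb as implied, and with the length trend removed the value was -0.62.

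Foxo4 was at 25.3, 38.1 and 29.2 CPM in PTN libraries 1, 2 and 3, against 39.5, 37.2 and 35.8 CPM in Control libraries 1, 2 and 3. Again PTN 1 and PTN 3 lay below all Control libraries, and PTN 2 fell among them. Foxo4 had a log2 fold change of -0.28 ± 0.18 (SE), and -0.46 without PTN 2. Foxo4 lies on the X chromosome. Summed over 4 Y-linked genes (Uty, Kdm5d, Ddx3y, Eif2s3y), levels were 30.3, 74.2 and 7.94 CPM in PTN libraries 1, 2 and 3, against 49.3, 102 and 80.3 CPM in Control libraries 1, 2 and 3. PTN 1 and PTN 3 were lowest in these genes as well as in Foxo4, and the part of this in the result was not tested. They were also lowest in Foxo1, which lies on chromosome 3.

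Foxo3, the FoxO factor best known for maintaining adult neural stem cells in the mouse, was at 122, 166 and 138 CPM in PTN libraries 1, 2 and 3, against 112, 117 and 118 CPM in Control libraries 1, 2 and 3. All PTN libraries lay above all Control libraries, PTN 1 by little, and the Control libraries were tight, with an SD of 3.34 CPM, against 22.2 CPM in PTN. For Foxo3 the log2 fold change was 0.29 ± 0.15 (SE). Foxo3 transcripts are 6.73 kb as implied, and with the length trend removed the value was 0.03.

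Foxo6, the remaining family member, was low at 2.21 ± 0.76 CPM in PTN and 2.18 ± 0.58 CPM in Control (SD, n = 3 each, edgeR adjusted p = 0.982). In FPKM the 4 FoxO genes summed to 35.2 ± 6.23 in PTN and 34.0 ± 0.42 in Control. Foxo3 made up 61.1%, 59.1% and 61.6% of that sum in PTN libraries 1, 2 and 3, against 48.7%, 51.5% and 52.0% in Control libraries 1, 2 and 3. It was the largest component in all 6 libraries, more so in every PTN library. The Foxo4 share was 27.1%, 29.0% and 26.7% in PTN libraries 1, 2 and 3, against 36.4%, 34.7% and 33.5% in Control libraries 1, 2 and 3. The Foxo1 share was 9.12%, 10.5% and 8.38% in PTN libraries 1, 2 and 3, against 11.7%, 11.5% and 12.6% in Control libraries 1, 2 and 3. No share overlapped between the groups for these 3 genes, although for Foxo1 and Foxo4 the levels did. The shares are parts of the same sum, so a higher Foxo3 share lowers the others and they are not separate results. The length trend was left in these FPKM values. In single genes, CPM did not overlap between the groups in 32.9% of all tested genes, and no such figure was computed for shares.

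PTN 2 was the highest PTN library for Pik3ip1 and for each of the 3 FoxO genes. The same library had the most astrocyte marker RNA among the PTN libraries. Gfap, the intermediate filament gene of astrocytes, was at 342, 1685 and 414 CPM in PTN libraries 1, 2 and 3, against 3740, 3614 and 3601 CPM in Control libraries 1, 2 and 3. The part of these markers in the FoxO and Pik3ip1 values was not tested.

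**Figure D3:**
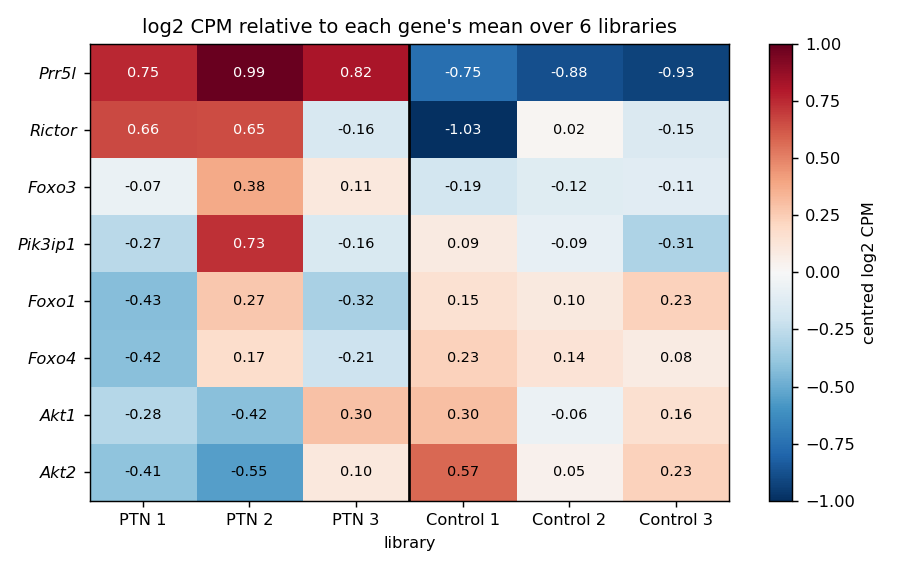
Log2 CPM of each gene relative to its mean over the 6 libraries (colour scale and printed values, red above and blue below the mean), with PTN libraries left of Control libraries. Prr5l separates the groups, Rictor is highest in PTN 1 and PTN 2 and lowest in Control 1, where Akt2 is highest, and Pik3ip1, Foxo1, Foxo3 and Foxo4 are each highest among PTN libraries in PTN 2.

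Among themselves the 8 profiles over the libraries fell close for Foxo1 and Foxo4, with a root mean square difference of 0.09 in centred log2 CPM, and for Akt1 and Akt2, with 0.16. The farthest pair was Akt2 and Prr5l, with 1.17, and Rictor and Prr5l, partners in mTORC2, differed by 0.65. By the same measure, over 6 libraries and 12452 other genes, Akt1 was closest to Kat2a (0.019) and Plekhh3 (0.029), and Akt2 to Cdh24 (0.032) and Pold2 (0.041). Rictor was closest to Rbm12b2 (0.040) and Zbtb33 (0.053), and Prr5l to Smad9 (0.085) and Gadd45b (0.11). Pik3ip1 was closest to Cxcr4 (0.058) and Mfng (0.077), Foxo1 to Itga2b (0.061) and Klf13 (0.064), Foxo3 to Npas2 (0.017) and Rfx4 (0.046), and Foxo4 to Spock2 (0.025) and Thtpa (0.036). Rbm12b2 has a closely related copy, so its reads may be shared between them.

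Per transcript length, Akt1 and Akt2 were by far the most abundant of the 8 genes. In PTN the order of mean FPKM was Akt1 (105 ± 27.4), Akt2 (76.9 ± 17.9), Prr5l (34.8 ± 4.45), Pik3ip1 (22.2 ± 8.45), Foxo3 (21.3 ± 3.37), Foxo4 (9.75 ± 2.13), Foxo1 (3.32 ± 0.94) and Rictor (2.82 ± 0.82; SD, n = 3). In Control it was Akt1 (124 ± 16), Akt2 (119 ± 24.2), Pik3ip1 (18.5 ± 2.49), Foxo3 (17.3 ± 0.41), Prr5l (11.9 ± 0.64), Foxo4 (11.9 ± 0.63), Foxo1 (4.06 ± 0.21) and Rictor (1.68 ± 0.57). Neighbours whose libraries overlapped were Akt1 with Akt2 in both groups, Pik3ip1 with Foxo3 in both, Prr5l with Pik3ip1 and Foxo1 with Rictor in PTN, and Prr5l with Foxo4 in Control. Prr5l thus stood next to Foxo4 in Control, and above Foxo3 in every PTN library.

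**Figure D4:**
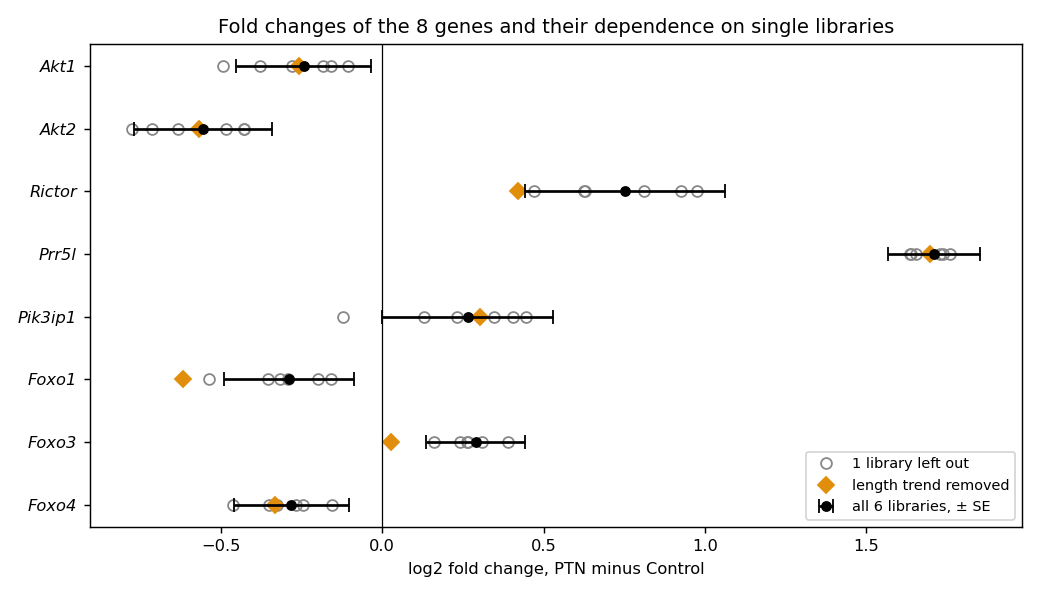
Log2 fold change, PTN minus Control (horizontal axis), of each of the 8 genes with its SE (black), with 1 library left out (grey circles) and with the trend on transcript length removed (orange). Prr5l stays between 1.63 and 1.76 over the left-out libraries, Pik3ip1 reaches -0.12 without PTN 2, and Foxo3 and Rictor are smaller, at 0.03 and 0.42, and Foxo1 more negative, at -0.62, with the length trend removed.

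The deposited annotation placed Akt1, Akt2, Foxo1, Foxo3 and Foxo4 in the FoxO signaling pathway, that is 5 of the 8 genes. The mTOR signaling pathway term held 3, Akt1, Akt2 and Rictor, and the TORC2 complex term held Prr5l and Rictor. By exon positions in an Ensembl-based annotation (GENCODE M21), an opposite-strand gene overlaps Foxo1 exons over 674 bases, Pik3ip1 exons over 91 bases and Prr5l exons over 78 bases. No source used here says whether counting used strand, so reads there cannot be told apart.

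What the rest of the pathway did was read from 125 other genes in 11 lists, 114 of them tested. Of these 10 were higher and 3 lower in PTN at an edgeR adjusted p under 0.05, or 11.4% called, against 7.99% of all tested genes. The count called higher was 6 without PTN 1, 15 without PTN 3, 4, 3 and 3 without Control library 1, 2 or 3, and 5 with the length trend removed, and the count called lower was 6 without PTN 2 and 1 without Control 3. Their median log2 fold change was 0.16, against 0.03 over all tested genes. The length trend was left in this median and in those of the single lists below. By length alone, the median was 0.31 in the longest eighth of genes and -0.24 in the shortest. Calls were most frequent among receptors and adaptors, 3 of 7, and other kinases of the AKT class, 3 of 8, while mTORC2 genes, AKT substrates and FoxO regulators had 0. These counts leave out the members, so Prr5l, called higher, is not among the mTORC2 genes here. The lists are small and were drawn up with earlier results of these data known. Nothing is therefore read from their order, from the share called or from the medians.

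Among receptors and adaptors that feed PI3K, 3 of 7 tested rose and 0 fell by edgeR, with a median log2 fold change of 0.55, while DESeq2 called 4 higher and limma-voom 2. Irs1, the docking protein of insulin and IGF1 receptors, rose 1.74-fold to 66.5 ± 0.68 CPM in PTN, against 38.1 ± 1.32 CPM in Control (SD, n = 3 each, edgeR adjusted p = 0.00833). Leaving out Control 2 or Control 3 gave it 0.0527 or 0.0734, with the log2 fold change (0.80) at 0.75 to 0.81 over the left-out libraries, and its counts were in part fractional. Gab2, a docking protein of growth factor receptors, rose 1.67-fold to 91.0 ± 5.49 CPM in PTN, against 54.3 ± 1.05 CPM in Control (edgeR adjusted p = 0.0124), and its adjusted p was 0.0507, 0.0808 and 0.103 with Control library 1, 2 or 3 left out. Its log2 fold change was 0.74, and 0.69 to 0.78 over the left-out libraries. The receptor gene Igf1r was at 61.6 ± 5.64 CPM in PTN and 42.0 ± 3.47 CPM in Control (edgeR adjusted p = 0.0497). That call was lost under 13 of 16 alternatives, among them the loss of any 1 library other than PTN 3, which gave 0.0611 to 0.188, while the log2 fold change (0.55) was 0.45 to 0.60 over the left-out libraries. With the length trend removed the log2 fold change was 0.47, 0.53 and 0.15 and the adjusted p of these genes was 0.0997, 0.0703 and 0.607 for Irs1, Gab2 and Igf1r. Irs2, another docking protein and a FoxO target, was at 164 ± 77.1 CPM in PTN and 125 ± 20.1 CPM in Control (edgeR adjusted p = 0.441).

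Of 7 tested PI3K subunits 1 rose and 0 fell, by edgeR, and the median log2 fold change was 0.58. DESeq2 also called Pik3r2, a regulatory subunit gene, lower, at 116 ± 17.2 CPM in PTN and 177 ± 25.4 CPM in Control (SD, n = 3 each, edgeR adjusted p = 0.0615). Pik3r5, the regulatory partner of the gamma catalytic subunit, was at 12.6, 10.5 and 12.6 CPM in PTN libraries 1, 2 and 3, against 2.96, 1.87 and 2.57 CPM in Control libraries 1, 2 and 3. Every PTN library lay far above every Control library, 4.83-fold by the means (2.27 ± 0.23 SE on the log2 scale; edgeR adjusted p = 0.00187). The gamma subunit gene Pik3cg itself did not pass the filter, with 1, 6 and 4 counts in PTN libraries 1, 2 and 3 and 1, 3 and 2 counts in Control libraries 1, 2 and 3. Pik3ca, the widely expressed catalytic subunit, was at 86.7 ± 21.8 CPM in PTN and 58.2 ± 12.2 CPM in Control (edgeR adjusted p = 0.157). Over the left-out libraries its edgeR adjusted p ran from 0.0311, without PTN 3, to 0.435. The log2 fold change of Pik3ca (0.58) was 0.40 to 0.77 over them. Its transcript is long, 6.70 kb as implied, and the eighth of genes with the longest transcripts had a median log2 fold change of 0.31. PTN 3 had the smallest length trend of the PTN libraries, at 0.03. The length trend was left in these Pik3ca values and in the median of the subunits.

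Of 13 tested inhibitors and phosphatases of the chain 1 rose and 0 fell by edgeR, DESeq2 and limma-voom alike, with a median log2 fold change of -0.11. Trib2, a pseudokinase reported in human melanoma to restrain FOXO3, rose 1.76-fold to 229 ± 51.2 CPM in PTN, against 130 ± 7.12 CPM in Control (SD, n = 3 each, edgeR adjusted p = 0.0325). Leaving out PTN 1 or any Control library gave Trib2 an adjusted p of 0.0993 to 0.121, and removing the length trend 0.0527, while its log2 fold change (0.82) was 0.69 to 0.99 over the left-out libraries.

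Among mTORC1 genes 0 of 16 tested rose and 2 fell by edgeR, DESeq2 and limma-voom alike, both of them restraints on growth signalling. Ddit4 (REDD1), a stress-induced inhibitor of mTORC1, was 1.91-fold lower at 57.8 ± 7.65 CPM in PTN, against 110 ± 10.2 CPM in Control (SD, n = 3 each, edgeR adjusted p = 0.0102, and 0.0132 to 0.0419 over the left-out libraries). Grb10, an adaptor that inhibits insulin and IGF1 receptors, was 2.17-fold lower at 19.9 ± 4.80 CPM in PTN, against 43.4 ± 1.80 CPM in Control (edgeR adjusted p = 0.0124; 0.0534 on leaving out Control 3).

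Of 8 tested kinases of the AKT class beside AKT itself 2 rose and 1 fell by edgeR, against 3 and 1 by DESeq2 and 1 and 1 by limma-voom. Sgk1, a kinase that mTORC2 activates and that can also phosphorylate FoxO factors, was at 41.3, 17.9 and 32.6 CPM in PTN libraries 1, 2 and 3, against 14.2, 13.9 and 13.6 CPM in Control libraries 1, 2 and 3. All PTN libraries were above the tight Control group, PTN 2 least, and the rise was 2.20-fold (edgeR adjusted p = 0.0412). Leaving out PTN 1 or any Control library gave Sgk1 an adjusted p of 0.112 to 0.141, and limma-voom and log2 FPKM gave 0.0644 and 0.0563, while its log2 fold change (1.14) was 0.86 to 1.41 over the left-out libraries. Prkce, a protein kinase C gene, rose 2.10-fold to 35.8 ± 3.66 CPM in PTN, against 17.0 ± 3.79 CPM in Control (edgeR adjusted p = 0.0157; 0.0654 on leaving out Control 3). Prkcz, an atypical protein kinase C gene, was 1.86-fold lower at 3.62 ± 0.80 CPM in PTN, against 6.76 ± 0.53 CPM in Control (edgeR adjusted p = 0.0497). That call was lost under 10 of 16 alternatives, among them the loss of any 1 library, which gave 0.0507 to 0.164, while the log2 fold change (-0.89) was -1.004 to -0.728 over the left-out libraries. Pdpk1, which encodes PDK1, was at 62.5, 57.9 and 54.8 CPM in PTN libraries 1, 2 and 3, against 35.6, 48.4 and 47.0 CPM in Control libraries 1, 2 and 3 (edgeR adjusted p = 0.140).

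**Figure D5:**
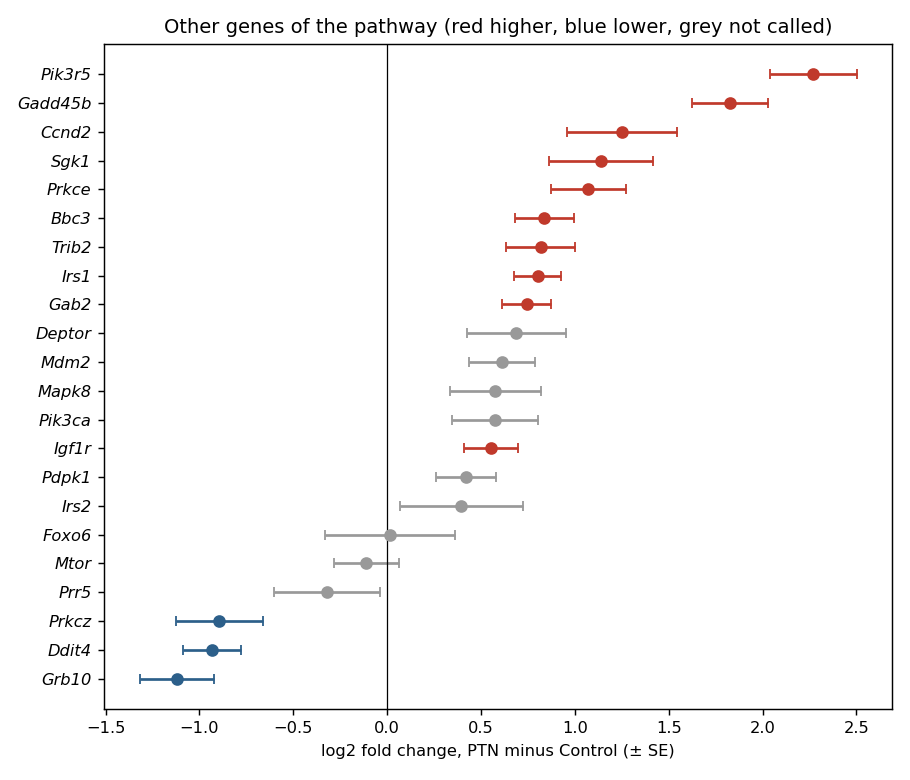
Log2 fold change, PTN minus Control (horizontal axis, ± SE), of 22 named genes of the pathway that are not among the 8, ordered by value, with colour by the edgeR call. The 10 genes called higher run from Igf1r at 0.55 to Pik3r5 at 2.27, and the 3 called lower from Grb10 at -1.12 to Prkcz at -0.89.

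Among AKT substrates outside FoxO and mTORC1, 0 of 10 tested were called by edgeR, 0 by limma-voom and 2 by DESeq2, with 2 at an unadjusted edgeR p under 0.05. The smallest p was that of Mdm2, the p53 ubiquitin ligase, at 63.2 ± 6.95 CPM in PTN and 41.4 ± 7.61 CPM in Control (SD, n = 3 each, edgeR adjusted p = 0.0697, but 0.0206 by DESeq2). Of FoxO regulators and partners 0 of 18 tested were called by edgeR, DESeq2 or limma-voom, with 1 at an unadjusted edgeR p under 0.05. There Mapk8, a stress kinase gene, had the smallest p, at 31.5 ± 5.65 CPM in PTN and 21.1 ± 6.27 CPM in Control (edgeR adjusted p = 0.171).

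Of 29 tested FoxO target genes 3 rose and 0 fell by edgeR, with a median log2 fold change of 0.02, 16 positive and 13 negative. DESeq2 called 5 higher and 1 lower, and limma-voom 4 higher and 0 lower. The gene DESeq2 called lower was Bcl2l11 (BIM), a pro-death gene, at 22.4 ± 4.25 CPM in PTN and 33.2 ± 2.57 CPM in Control (SD, n = 3 each, edgeR adjusted p = 0.0859). Gadd45b, a stress and growth arrest gene, rose 3.55-fold to 10.3 ± 1.44 CPM in PTN, against 2.88 ± 0.15 CPM in Control (SD, n = 3 each, edgeR adjusted p = 0.00283, and 0.00276 to 0.0251 over the left-out libraries). Bbc3 (PUMA), a pro-death gene of the BCL2 family, rose 1.79-fold to 18.1 ± 1.30 CPM in PTN, against 10.1 ± 0.21 CPM in Control (edgeR adjusted p = 0.0165), and its adjusted p was 0.0642, 0.0915 and 0.115 with Control library 1, 2 or 3 left out. Its log2 fold change was 0.84, and 0.78 to 0.89 over the left-out libraries. Ccnd2, a G1 cyclin that FoxO factors are known to repress, was at 3108, 1318 and 2679 CPM in PTN libraries 1, 2 and 3, against 884, 1034 and 1068 CPM in Control libraries 1, 2 and 3. All PTN libraries were higher, PTN 2 least (2.38-fold by the means, edgeR adjusted p = 0.0355). Leaving out PTN 1 or any Control library gave Ccnd2 an adjusted p of 0.0974 to 0.136, and removing the length trend 0.0779, while its log2 fold change (1.25) was 1.01 to 1.54 over the left-out libraries. The targets that rose by edgeR thus include genes FoxO factors activate and a gene they repress, and all 3 are also controlled by other pathways.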

How the data were processed

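RNA from 3 PTN and 3 Control libraries was measured per gene. Per the labels' protocols, libraries were made with a SMARTER mRNA kit. The authors deposited expected counts, unscaled, and FPKM values, per the file headers. The sources used here name no aligner, counter, build or annotation. Columns were matched to samples by group letter and replicate number.

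Expected counts were rounded, genes kept by filterByExpr (13161 of 22322) and scaled by TMM, and groups compared with edgeR's quasi-likelihood test of edgeR 4.0.16 under R 4.3.3. The model held the group alone. The p-values were adjusted over all tested genes by Benjamini-Hochberg and called under 0.05. The SE is the size of the log2 fold change divided by the square root of F. 1 CPM stands for 19.3 to 26.3 counts. Transcript length was inferred from counts and FPKM. Log2 FPKM had a pseudocount of 0.1. The fit was tested on simulated data. Alternatives used limma 3.58.1 and DESeq2 1.42.0, and the length-trend fit subtracts a smooth trend of log2 CPM on length per library.

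The members, the 11 lists and the alternatives were chosen with earlier results of these data known. Named genes were the 8 members, up to 4 called genes of each list by smallest p or else the gene of smallest p, a fixed set of 9 (Foxo6, Mtor, Prr5, Pik3ca, Pdpk1, Sgk1, Irs2 and 2 that are not reported here), and for each member the 2 genes of at least 1 CPM with the closest profile. Pik3r2, Bcl2l11 and the single cell type markers were named after their values were seen.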

Additional observations from a re-analysis of the deposited data

How the results depend on the processing

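Over all tested genes, 649 were called higher and 403 lower, and these counts were 1134 and 774 by DESeq2's Wald test and 1089 and 824 at an adjusted p under 0.1. With 1 library left out they ranged over 201 to 1273 higher and 130 to 904 lower, the most without PTN 3. Of the 8 members 1 was called higher and 0 lower, and with 1 library left out 1 to 2 and 0 to 1, and nothing is read from these counts. Pathway genes called higher were 10, but 5 with the length trend removed, 6 with the replicate block and 3 to 15 with 1 library left out. Those called lower were 3, but 5 by DESeq2 and 1 to 6 with 1 library left out. Refits without a library have fewer residual degrees of freedom. Deviations from the group means correlated at -0.51, 0.36 and -0.01 between PTN and Control for replicate numbers 1, 2 and 3. PTN 1 and PTN 3 correlated best with another number and PTN 2 with its own. Deviations within a group of 3 cancel out, so these correlations depend on each other and cannot settle whether the numbers pair the libraries. With the replicate block 454 genes were called higher and 272 lower. The members' log2 fold changes kept their direction in 127 of 128 values, the exception being Pik3ip1, at -0.12 to 0.45 with 1 library left out. Among the other named genes Mtor (-0.11) ranged over -0.26 to 0.018 and Foxo6 (0.01) over -0.27 to 0.22 with 1 library left out, and Foxo6 was -0.035 with upper-quartile scaling, -0.022 by limma-voom, -0.0077 on log2 FPKM and -0.010 with the replicate block. The cause of these shifts was not tested. Foxo6, Prr5, Deptor and Prkcz averaged under 10 CPM in both groups, and the part of counting error in their spread was not tested.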
